A study of Mus musculus with 6 samples.

Results

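The 10 genes described here mark endothelial tip cells, the cells at the front of a vessel sprout. They are Esm1, Pdgfb, Cxcr4, Mcam, Kcne3, Trp53i11, Fscn1, Plod1, Lxn and Hlx, a list given by name and matched by symbol and Ensembl ID. All 10 were among the 49315 gene IDs in the count files, and all 10 passed the filter on low counts that left 23989 genes for testing. RNA came from endothelial cells of tumours formed by 4T1, a mouse mammary carcinoma line, in female Balb/c mice aged 10 weeks at harvest, with tumours of 2 weeks. Both groups came from animals given 1E12 gold particles of 50 nm, coated with polyethylene glycol and carrying the dye Cy5, by vein 1 h before harvest. The nanoparticle-positive (NP+) group is the sorted cells that carried the dye, and the nanoparticle-negative (NP-) group is those that did not. Each of 3 tumours gave 1 library to each group (MET-106, MET-107, MET-108, the order in which the values of single libraries are given), and no animal without particles was part of the comparison. Before the sort, cells were depleted of CD45, a leukocyte protein, and enriched for CD31, an endothelial protein.

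Sprouting vessels are led by tip cells, which extend filopodia toward growth factors, while stalk cells behind them divide and form the lumen. Tip cells release signals to neighbouring cells, remodel the matrix ahead of them and rearrange their actin. Esm1 and Pdgfb encode secreted proteins, Cxcr4 a chemokine receptor, Mcam an adhesion protein and Kcne3 a potassium channel subunit. Trp53i11 encodes a membrane protein named for its induction by p53. Fscn1 bundles actin, Plod1 modifies collagen, Lxn inhibits carboxypeptidases and Hlx is a homeobox transcription factor.

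In NP+ cells 9 of the 10 genes had a higher mean level than in NP- cells, and Cxcr4 had nearly the same mean in both groups. Hlx stood 3.70 times as high by the ratio of means, Trp53i11 3.55 times and Esm1 2.90 times. Fscn1, Kcne3, Mcam, Lxn, Pdgfb and Plod1 stood between 1.45 and 2.14 times as high. At an unadjusted p under 0.05, 8 of 10 were higher and 0 were lower (edgeR's quasi-likelihood test), beside 8.01% of all genes tested higher and 15.4% lower. None of the 10 passed an adjusted p under 0.05 in that test, where 0.0125% of genes were higher and 0.0167% lower. The lowest adjusted p, 0.0600, belonged to Esm1 and Hlx, so no gene of the list is called changed here. The median log2 fold change of the 10 was 0.82, beside -0.29 over all genes tested. That test does not take the pairing of the libraries by tumour into account. With the tumour as a block, edgeR's adjusted p was 0.063 for Esm1, 0.081 for Trp53i11 and 0.086 for Hlx. For the rest of the list the blocked adjusted p ran from 0.109 (Fscn1) to 0.801 (Cxcr4).

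The authors' deposited table, which uses DESeq2 per the submitters' processing notes, lists 7 of the 10 as higher in NP+ at an adjusted p under 0.05 and 0 as lower. Its background is 3.71% of genes higher and 9.45% lower. The 7 are Esm1, Hlx, Trp53i11, Kcne3, Fscn1, Lxn and Mcam. In the authors' deposited table the adjusted p was 6.03e-08 for Esm1, 1.22e-07 for Trp53i11 and 6.56e-07 for Hlx. That table's adjusted p was between 0.00803 and 0.0460 for Kcne3, Fscn1, Mcam and Lxn, and 0.0593, 0.148 and 0.967 for Pdgfb, Plod1 and Cxcr4. The tests differ on the calls while their log2 fold changes lie close together, as the plot of the estimates shows.

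The number of the 10 genes that pass depends on the tool and the filter. At an adjusted p under 0.05, DESeq2 run on the same counts gave 7 of 10 higher (3.19% of all genes with an adjusted p), and 7 of 10 with the tumour as a block (4.79%). Limma-voom gave 2 (0.05%), edgeR without the low-count filter 5 (1.19%) and edgeR with a filter of at least 5 CPM (counts scaled to library size) in 3 libraries 2 (0.169%). edgeR with the tumour as a block gave 0 (0.00834%), and edgeR at an adjusted threshold of 0.1 gave 3 (0.504%). Without the NP- library of MET-106 edgeR gave 3 of 10 (3.48%), and without that of MET-108 it gave 4 of 10 (0.428%). Without any other single library it gave 0 of 10 (0% of all genes). Esm1, Hlx and Trp53i11 were in both sets, and Mcam was the other gene in the second. The count of 8 at an unadjusted p under 0.05 became 5 with upper-quartile scaling (3.27%), 4 with total-count scaling (2.54%), 4 with the 5 CPM filter (6.44%) and 10 without the NP- library of MET-108 (10%). At an unadjusted threshold of 0.01 it was 4 (2.73%). Reads recovered from the deposited signal gave 0 of 10 at an adjusted p under 0.05 (0.0128%). These reads equal the deposited counts, so this is not a separate check.

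**Figure D1:**
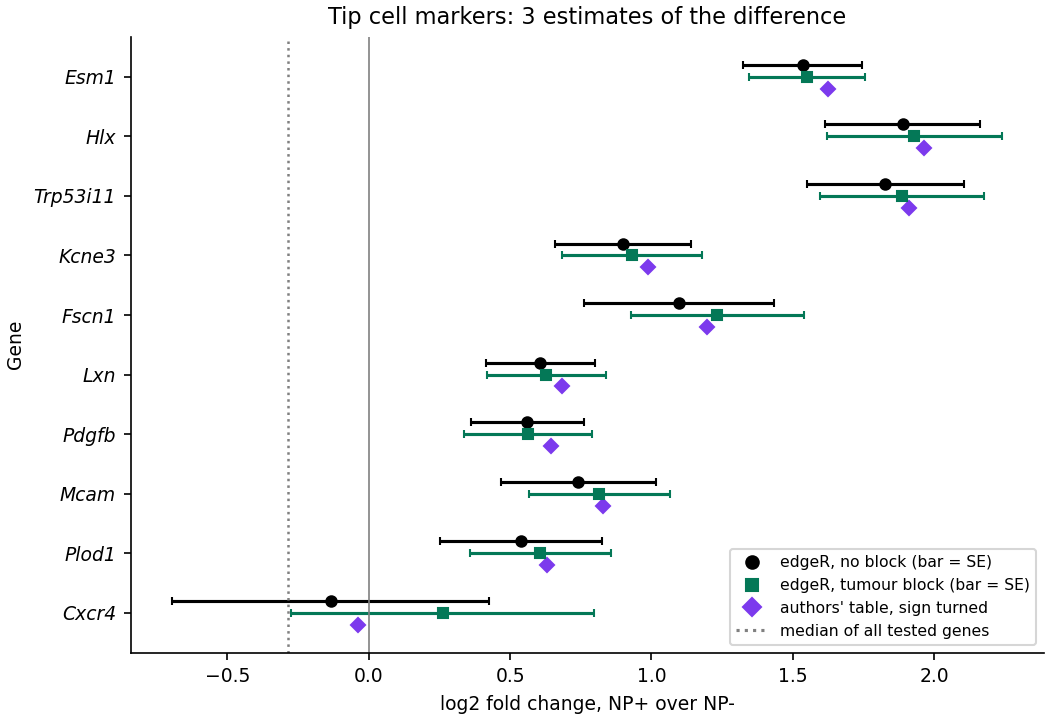
The log2 fold change of NP+ over NP- (horizontal axis) for each of the 10 genes (vertical axis), from edgeR without a block, from edgeR with the tumour as a block, and from the authors' deposited table with its sign turned; bars are SE and are given for the edgeR estimates only. Hlx, Trp53i11 and Esm1 sit between 1.53 and 1.96 in all 3 estimates, and Cxcr4 sits on both sides of 0.

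Depth was 20856410 to 58089600 gene counts a library. The log2 levels of the NP+ libraries correlated with each other at 0.959 to 0.970, and those of the NP- libraries at 0.832 to 0.876. The NP- library of MET-106 correlated at 0.945 to 0.951 with the NP+ libraries, closer than with the other NP- libraries. The libraries held the markers of their endothelial label: the summed level of 20 pan-endothelial genes was 16660 to 18770 CPM in NP+ and 10900 to 14570 CPM in NP-. Fibroblast markers summed to 18.8 to 59.5 CPM in NP+ libraries, against 3952, 154 and 65.9 CPM in NP-, and 9 of 10 were lower in NP+ at an unadjusted p under 0.05. Pericyte markers summed to 101 to 128 CPM in NP+, against 928, 294 and 171 CPM in NP- (9 of 12 lower). Epithelial markers summed to 10.1 to 16.2 CPM in NP+, against 703, 44.2 and 25.9 CPM in NP- (9 of 10 tested lower, but 4 with the tumour as a block). Leukocyte markers summed to 27.1 to 38.2 CPM in NP+, against 183, 177 and 62.3 CPM in NP- (9 of 14 lower). Lymphatic endothelial markers summed to 399 to 457 CPM in NP+, against 255, 1761 and 733 CPM in NP- (4 of 7 lower), and platelet markers to 9.82 to 10.9 CPM in NP+, against 10.7 to 17.2 CPM in NP- (0 of 5). None of these markers was at 0 in all 6 libraries. Their part in the differences described here was not tested, and in bulk RNA a smaller share of a cell type and less RNA per cell cannot be told apart.

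The sequences just upstream of the transcription starts are given for Esm1, Hlx and Trp53i11, which had the smallest p-values, and for Cxcr4, whose groups overlapped the most. Each run is the 250 bases before the start annotated by RefSeq in GRCm38.p6, 5′ to 3′ on the gene's strand. The counted Hlx gene extends to 184732619, so part of the Hlx window lies within the counted gene. Capitals mark matches on either strand to short motifs. One is ACGTG, the core of a hypoxia response element. Another is GGGCGG, known as the GC box. The core bound by RBPJ, the Notch effector, is TGGGAA. For ETS factors the core searched was CCGGAA. The TATA box was searched as TATAAA. The site of AP-1 was searched as TGACTCA.
Esm1, chr13:113209409-113209658, plus strand: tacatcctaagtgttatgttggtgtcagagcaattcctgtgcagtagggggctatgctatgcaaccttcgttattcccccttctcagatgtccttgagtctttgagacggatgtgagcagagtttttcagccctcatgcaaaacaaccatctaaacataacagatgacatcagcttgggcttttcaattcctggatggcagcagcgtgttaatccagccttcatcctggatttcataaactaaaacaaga
Hlx, chr1:184732494-184732743, minus strand: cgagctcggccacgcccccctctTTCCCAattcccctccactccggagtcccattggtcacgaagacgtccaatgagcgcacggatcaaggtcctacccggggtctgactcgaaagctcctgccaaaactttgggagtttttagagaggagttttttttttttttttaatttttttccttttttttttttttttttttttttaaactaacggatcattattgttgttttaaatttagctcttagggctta
Trp53i11, chr2:93187298-93187547, plus strand: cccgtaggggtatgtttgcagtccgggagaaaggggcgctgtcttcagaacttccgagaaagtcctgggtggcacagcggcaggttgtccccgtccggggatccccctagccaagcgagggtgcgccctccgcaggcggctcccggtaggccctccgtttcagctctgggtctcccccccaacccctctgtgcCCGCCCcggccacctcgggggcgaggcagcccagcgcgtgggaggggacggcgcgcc
Cxcr4, chr1:128592300-128592549, minus strand: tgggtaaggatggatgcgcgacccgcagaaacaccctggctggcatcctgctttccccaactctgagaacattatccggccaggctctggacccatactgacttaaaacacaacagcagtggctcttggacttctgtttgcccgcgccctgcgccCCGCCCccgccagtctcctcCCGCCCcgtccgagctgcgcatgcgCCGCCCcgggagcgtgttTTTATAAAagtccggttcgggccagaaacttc
The Esm1 window held none of these letters, the Hlx window 1 RBPJ core and the Trp53i11 window 1 GC box. The Cxcr4 window held 3 GC boxes and 2 TATA box matches that overlap each other, 1 on each strand. GC content was 44% for Esm1, 41.6% for Hlx, 71.2% for Trp53i11 and 61.2% for Cxcr4, beside a median of 52.4% over 32851 windows. RefSeq windows were found for 9 of the 10 genes, with 2 for Kcne3. Of these 9 genes, 6 held a GC box (32.7% of all windows), 3 an RBPJ core (21.6%), 3 a TATA box (12.4%) and 2 the hypoxia core (16.6%). None held the ETS core (12% of all windows) or the AP-1 site (4.46%). A match is a description of letters and not a bound site. Esm1, Hlx and Trp53i11, the genes of smallest p, had none of these motifs in common.

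Among the secreted proteins, Esm1 stood well above its NP- level in every tumour. It encodes endocan, a proteoglycan that tip cells release (chromosome 13, 113209659 to 113218098, plus strand, in GRCm38, as are all gene positions given). The level was 152, 162 and 193 CPM in NP+, against 44.8, 62.1 and 68.3 CPM in NP-. The groups did not overlap, and the lowest NP+ library was 2.22 times the highest NP- library. The log2 fold change was 1.53 (SE 0.21), with an adjusted p of 0.0600 by edgeR's quasi-likelihood test. Without the NP- library of MET-106, which holds the most fibroblast, pericyte and epithelial marker RNA, the ratio of means was 2.59. Over the 6 fits that leave out 1 library each, the log2 fold change ran from 1.43 to 1.74 and the adjusted p from 0.0160 to 0.379.

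Pdgfb (chromosome 15, 79995900 to 80014808, minus strand) encodes the growth factor subunit with which tip cells draw pericytes to the new vessel. Its NP+ libraries held 48.1, 60.0 and 49.9 CPM, and its NP- libraries 30.3, 37.0 and 39.8 CPM. All 3 NP+ values lay above all 3 NP- values, by a small margin, with the lowest NP+ library 1.21 times the highest NP- library. By edgeR the log2 fold change was 0.56 (SE 0.20), with an adjusted p of 0.164. Pdgfrb, the receptor for this ligand and a pericyte marker, stood at 9.17, 6.14 and 1.25 CPM in NP+, against 92.4, 39.7 and 4.84 CPM in NP-. The NP- levels of Pdgfrb thus differed more among tumours than those of Pdgfb. Of 9 genes tested on the Pdgfb partner list, 2 were higher and 5 lower at an unadjusted p under 0.05, with Pdgfra, Lrp1, Loxl2 and Lox, all lower, having the smallest p. With the tumour as a block 1 was higher and 4 lower, without Lox. The NP- libraries held 55.6, 4.41 and 2.52 CPM of Lox and 79.8, 15.2 and 5.58 CPM of Lrp1. Their NP- means of 20.85 and 33.5 CPM thus rest largely on MET-106, and were 3.465 and 10.4 CPM without it. Pdgfra, a receptor typical of fibroblasts, averaged 1.22 ± 0.71 CPM in NP+, against 14.0 ± 9.48 CPM in NP- (SD, n = 3 each).

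Cxcr4 did not separate the groups. It encodes the receptor for the chemokine Cxcl12 (chromosome 1, 128588199 to 128592293, minus strand). The level was 12.3, 12.8 and 11.0 CPM in NP+, against 4.97, 7.94 and 26.8 CPM in NP-. The NP- library of MET-108 was the highest of all 6 and the NP+ libraries lay between it and the other NP- libraries. On the log2 scale the fold change was -0.14 (SE 0.56), with an adjusted p of 0.891 (edgeR), and with the tumour as a block it was 0.26, with an adjusted p of 0.801. The fold of NP+ over NP- was 2.48 in MET-106, 1.61 in MET-107 and 0.41 in MET-108. Without the NP- library of MET-108 the ratio of means was 1.87 and the log2 fold change 0.93, with an adjusted p of 0.150. The sign was positive with that library kept as well, at 0.01 without the NP+ library of MET-106, 0.09 without that of MET-108 and 0.35 with limma-voom, so the direction is not settled.

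Cxcl12, the ligand of Cxcr4, lay the other way from the markers. Its level was 272, 212 and 157 CPM in NP+, against 398, 476 and 333 CPM in NP-, with no overlap. Its log2 fold change was -0.91 (SE 0.24), with an adjusted p of 0.125 (edgeR). Ackr3, an atypical receptor that also binds Cxcl12, stood at 169 ± 22.5 CPM in NP+, against 159 ± 81.2 CPM in NP- (SD, n = 3 each). Of 8 genes on the Cxcr4 partner list, 2 were higher and 1 lower at an unadjusted p under 0.05, and with the tumour as a block 1 was higher, without Mif, and 1 lower. The higher ones were Gnai2, a G protein subunit gene at 1464 ± 77.3 CPM in NP+, against 393 ± 343 CPM in NP-, and Mif, a cytokine gene at 280 ± 15.8 CPM in NP+, against 205 ± 41.8 CPM in NP- (SD, n = 3 each). Grk2, a kinase that switches off such receptors, was the next by p, at 21.2 ± 0.52 CPM in NP+, against 16.6 ± 2.04 CPM in NP-.

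Mcam encodes CD146, an adhesion molecule of endothelium that pericytes also carry (chromosome 9, 44134469 to 44142727, plus strand). Its NP+ libraries held 1907, 1718 and 1885 CPM, against 792, 886 and 1620 CPM in the NP- libraries. The groups touched without overlapping, since the lowest NP+ library was 1.06 times the NP- library of MET-108. The log2 fold change was 0.74 (SE 0.27), with an adjusted p of 0.170 (edgeR). Without the NP- library of MET-108 the log2 fold change was 1.16 and the adjusted p 0.0366, and without any other single library the adjusted p was 0.153 to 0.419. Pericyte markers summed higher in NP- than in NP+ libraries, as given above, and their part in the Mcam levels was not tested. Lama4, a chain of a laminin that binds CD146, stood at 1210, 972 and 998 CPM in NP+, against 405, 627 and 1149 CPM in NP-, with overlap.

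Kcne3, the subunit that pairs with the potassium channel Kcnq1, lies on chromosome 7, 100176502 to 100184869, plus strand. Its levels were 161, 203 and 151 CPM in NP+, against 66.5, 90.2 and 119 CPM in NP-. Every NP+ library was above every NP- library, and the gap was narrowest in MET-108, where the fold was 1.27, against 2.42 in MET-106 and 2.25 in MET-107. This gave a log2 fold change of 0.90 (SE 0.24), with an adjusted p of 0.127 (edgeR). Kcnq1 itself stood at 99.9, 106.7 and 100.1 CPM in NP+, against 40.4, 67.8 and 51.1 CPM in NP-, also without overlap. Its log2 fold change was 0.95 (SE 0.22), with adjusted p = 0.112. Both genes of the pair were thus higher in NP+ at an unadjusted p under 0.05. Of 7 potassium channel genes tested on the Kcne3 partner list, 2 were higher (Kcnk6 and Kcnq1) and 2 lower (Kcnn4 and Kcne4). With the tumour as a block 2 were higher and 3 lower, without Kcne4. The NP- means of Kcnn4 and Kcne4, 10.8 and 11.3 CPM, were 2.12 and 4.23 CPM without the NP- library of MET-106. Kcnk6 averaged 18.7 ± 2.96 CPM in NP+, against 5.61 ± 1.83 CPM in NP- (SD, n = 3 each).

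Trp53i11 (chromosome 2, 93187548 to 93201759, plus strand) was the most abundant of the 10 per length in NP+ cells. Its NP+ libraries held 2113, 2150 and 2570 CPM, against 639, 877 and 409 CPM in NP-. The lowest NP+ library was 2.41 times the highest NP- library. The fitted log2 fold change was 1.83 (SE 0.28), with an adjusted p of 0.0681 (edgeR). Its fold was 3.31 in MET-106, 2.45 in MET-107 and 6.28 in MET-108.

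Hlx, on chromosome 1, 184727140 to 184732619, minus strand, had the largest ratio of means of the 10. Its level was 54.2, 49.7 and 61.3 CPM in NP+, against 17.3, 17.6 and 9.65 CPM in NP-. The groups lay far apart, with the lowest NP+ library 2.82 times the highest NP- library. Its log2 fold change was 1.89 (SE 0.27), with an adjusted p of 0.0600 (edgeR). In human endothelial cells HLX is known to raise the guidance genes UNC5B and SEMA3G. Unc5b stood at 26.7, 31.7 and 16.5 CPM in NP+, against 24.2, 32.3 and 20.1 CPM in NP-, with full overlap. Sema3g stood at 11.0 ± 2.11 CPM in NP+, against 24.1 ± 14.1 CPM in NP- (SD, n = 3 each), with overlap between the groups. Of 6 genes on the Hlx partner list, 1 (Notch1) was higher and 2 (Sema3g and Vgll3) were lower at an unadjusted p under 0.05, and with the tumour as a block Sema3g was lost. Dll4, a Notch ligand that tip cells carry, averaged 430 ± 92.6 CPM in NP+, against 313 ± 186 CPM in NP- (SD, n = 3 each), and missed the threshold for an unadjusted p.

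**Figure D2:**
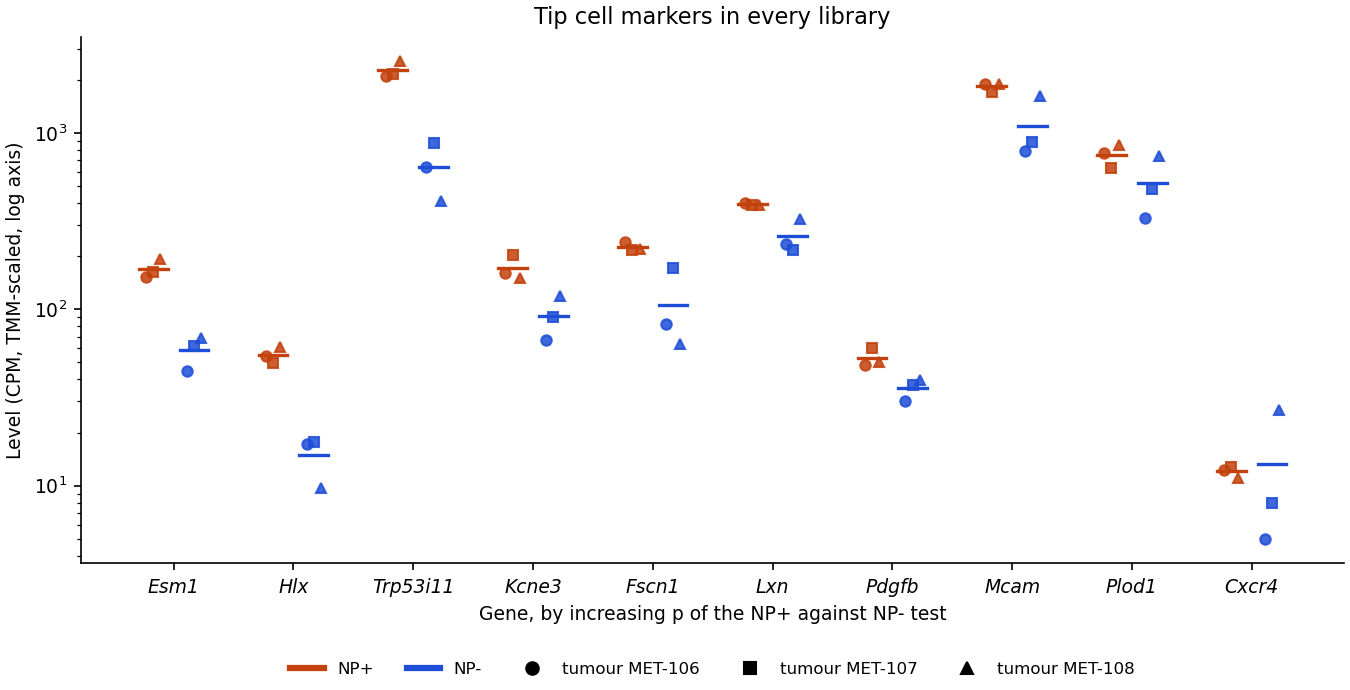
The level of each of the 10 genes in every library (vertical log axis, CPM scaled by TMM), NP+ left of NP- for each gene, with a symbol for each tumour and a bar at the mean; genes run left to right by increasing p. The 3 NP+ points lie above the 3 NP- points for 8 genes, and the groups overlap for Plod1 and Cxcr4.

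Fscn1, which encodes fascin, the protein that bundles actin into the filopodia of tip cells, lies on chromosome 5, 142960343 to 142973185, plus strand. It stood at 242, 218 and 218 CPM in NP+, against 82.8, 171 and 63.6 CPM in NP-. The NP+ libraries were close together, while the NP- library of MET-107 was well above the other NP- libraries. On the log2 scale the difference was 1.10 (SE 0.34), with an adjusted p of 0.142 (edgeR). Without that NP- library the log2 fold change was 1.64, with an adjusted p of 0.123 (edgeR), and the ratio of means 3.09. That was the highest of the fits that leave out 1 library each. The lowest was 0.87, without the NP- library of MET-108, and the adjusted p ran from 0.1045 to 0.413. On the list of 14 partner genes of Esm1, Mcam and Fscn1 and of the actin skeleton, 0 were higher and 3 lower at an unadjusted p under 0.05. The 3 were Hgf, a growth factor that Esm1 binds, at 1.25 ± 0.86 CPM in NP+, against 7.31 ± 5.42 CPM in NP- (SD, n = 3 each), Enah, an actin-elongating protein gene, and Itgal, a leukocyte integrin gene. With the tumour as a block 2 were lower, without Enah. Cdc42, a GTPase gene that drives filopodia, averaged 1119 ± 28.2 CPM in NP+, against 876 ± 94.9 CPM in NP- (SD, n = 3 each), and missed the threshold too.

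Plod1 encodes lysyl hydroxylase, an enzyme that prepares collagen for crosslinking (chromosome 4, 147909753 to 147936767, minus strand). Its NP+ libraries held 765, 636 and 852 CPM, against 327, 482 and 742 CPM in the NP- libraries. The groups overlapped: the NP- library of MET-108 lay above the NP+ library of MET-107, although NP+ was the higher within each tumour. By edgeR the log2 fold change was 0.54 (SE 0.29), with an adjusted p of 0.281. With the tumour as a block the adjusted p was 0.208 and the unadjusted p was under 0.05, which adds Plod1 to the genes higher at an unadjusted p under 0.05 (9 of 10, beside 7.85% of all genes). Of 8 collagen-processing genes on the Plod1 partner list, 4 were higher in NP+ at an unadjusted p under 0.05 and 0 were lower. Fkbp10, a collagen chaperone gene, averaged 545 ± 27.4 CPM in NP+, against 306 ± 39.9 CPM in NP- (SD, n = 3 each), with a log2 fold change of 0.83 and an adjusted p of 0.0992 by edgeR. Colgalt1, a collagen glycosyltransferase gene, averaged 51.5 ± 10.0 CPM in NP+, against 24.5 ± 7.46 CPM in NP-. P4hb, a prolyl hydroxylase subunit gene, averaged 1160 ± 68.5 CPM in NP+, against 773 ± 80.3 CPM in NP-. The sister enzymes of Plod1 were measured as well: Plod3 averaged 243 ± 32.9 CPM in NP+, against 179 ± 17.8 CPM in NP-, and Plod2 31.3 ± 4.92 CPM in NP+, against 25.1 ± 14.1 CPM in NP-, where Plod2 missed the threshold for an unadjusted p, as Plod3 did with the tumour as a block.

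Lxn encodes latexin, an inhibitor of carboxypeptidases (chromosome 3, 67457998 to 67463926, minus strand). It stood at 399, 393 and 390 CPM in NP+, against 234, 218 and 324 CPM in NP-. Its NP+ values differed by a ratio of 1.02 only, the narrowest range of the 10 in NP+, and the groups did not overlap. The fitted log2 fold change was 0.61 (SE 0.19), with an adjusted p of 0.145 (edgeR). Of the counted length 63 bp (4.18%) overlap exons of Gfm1 on the other strand. The library kit does not mark strand, so reads there cannot be assigned to either gene. Kcne3 shares 9 bp (0.506%) with Gm34821 and Mcam 17 bp (0.507%) with Gm10687. Of 6 carboxypeptidase-related genes tested, 0 were higher and 4 (Cpa3, Cpa4, Cpb1 and Cpa6) were lower at an unadjusted p under 0.05, all below 1 CPM on average in NP+. With the tumour as a block 3 were lower, and Cpa3 was not among them. In NP- cells Cpb1, Cpa4 and Cpa6 stood at only 1.80, 2.48 and 2.92 times the level of olfactory receptor genes per length. Olfactory and vomeronasal receptor genes, a measure of background signal, summed to 134, 426 and 245 CPM in NP+, against 363, 1814 and 1426 CPM in NP-. The part of background in these differences was not tested. Cpa3, a mast cell gene, stood at 0.14, 0.073 and 0.35 CPM in NP+, against 0.29, 18.4 and 1.14 CPM in NP-, so its NP- mean of 6.60 CPM rests on MET-107 and is 0.72 CPM without it.

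Per kilobase of counted length, the order of the 10 differed between the groups. In NP+ cells Trp53i11 (617 ± 68.8 CPM per kb, SD, n = 3) and Mcam (548 ± 30.8) led and differed by about their spread. Lxn followed at 261 ± 3.20 CPM per kb. Plod1 (111 ± 16.1), Kcne3 (96.4 ± 15.4), Esm1 (80.7 ± 10.2) and Fscn1 (75.1 ± 4.64) formed a run in which the libraries of neighbours overlapped. Hlx (24.2 ± 2.56), Pdgfb (18.0 ± 2.19) and Cxcr4 (6.66 ± 0.52) were the lowest. In NP- cells Mcam led at 328 ± 136 CPM per kb, ahead of Trp53i11 (174 ± 63.4) and Lxn (172 ± 38.1), which lay within each other's spread. Plod1 (76.4 ± 30.9), Kcne3 (51.7 ± 14.8), Fscn1 (35.1 ± 19.0) and Esm1 (27.9 ± 5.81) followed, each within the spread of its neighbour. Pdgfb (12.2 ± 1.67), Cxcr4 (7.32 ± 6.55) and Hlx (6.53 ± 1.98) closed the order of NP- means. Cxcr4 and Hlx lay within the spread there, and Cxcr4 was below Hlx in the NP- libraries of MET-106 and MET-107 and above it in that of MET-108.

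The distance between the groups differed among tumours. The median over the 10 genes of the log2 ratio of NP+ over NP- was 1.29 in MET-106, 0.90 in MET-107 and 0.33 in MET-108. NP+ was higher in 3 of 3 tumours for 9 of the 10 genes, beside 20% of all genes tested, and the exception was Cxcr4. For 8 of the 10 the NP+ libraries all lay above the NP- libraries, beside 13.3% of all genes. So they did for 13 of 20 pan-endothelial genes, 15 of 25 further tip cell genes and 7 of 16 stalk or phalanx cell genes. With upper-quartile scaling this held for 4 of the 10 (6.12% of all genes), and with total-count scaling for 4 (4.79%). In MET-108 Trp53i11, Hlx and Fscn1 had their largest ratio of the 3 tumours, and Kcne3, Cxcr4, Lxn, Pdgfb, Plod1 and Mcam their smallest.

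**Figure D3:**
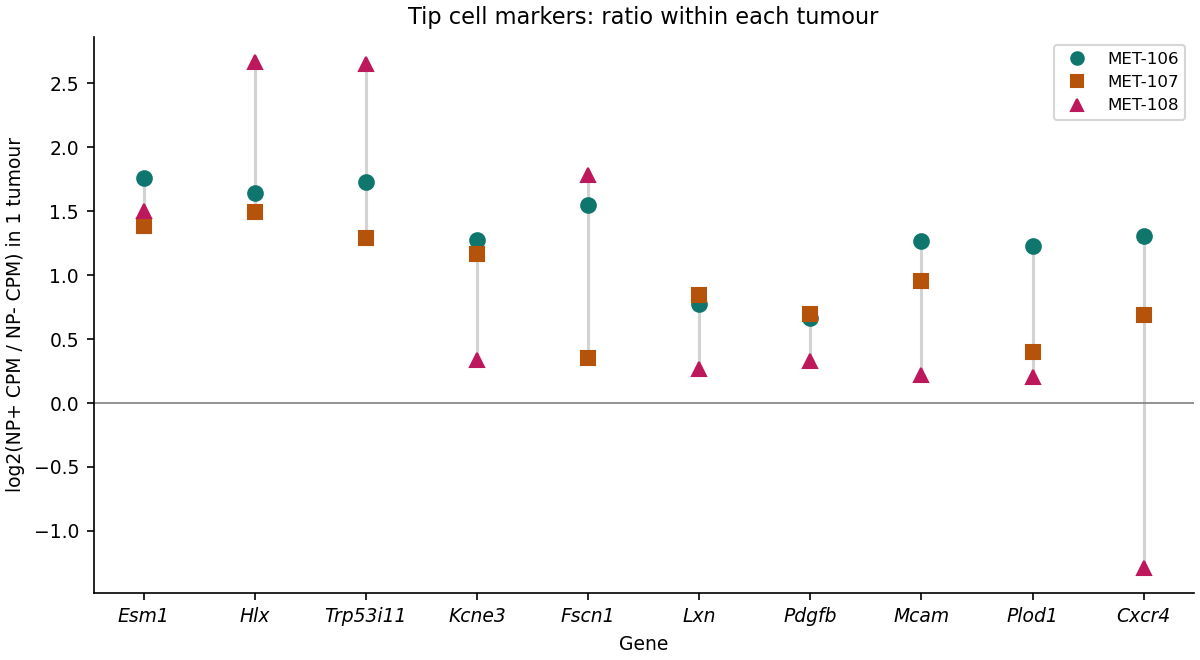
The log2 ratio of NP+ over NP- within each tumour (vertical axis) for the 10 genes (horizontal axis), with a symbol for each tumour. In MET-108 Trp53i11 and Hlx lie above their values in the other tumours and Cxcr4 lies below 0.

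The spread lay mostly in the NP- libraries. The ratio of the highest to the lowest library ran from 1.02 to 1.34 in NP+ and from 1.31 to 5.39 in NP-, and it was wider in NP- for 10 of 10 genes. The same held for 78.1% of 21128 tested genes with a count in all 6 libraries. The NP- library of MET-108 was the highest NP- library for 7 genes and the lowest for Trp53i11, Hlx and Fscn1. These 3 genes therefore followed another order over the NP- libraries, which the heat map of centred levels shows.

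**Figure D4:**
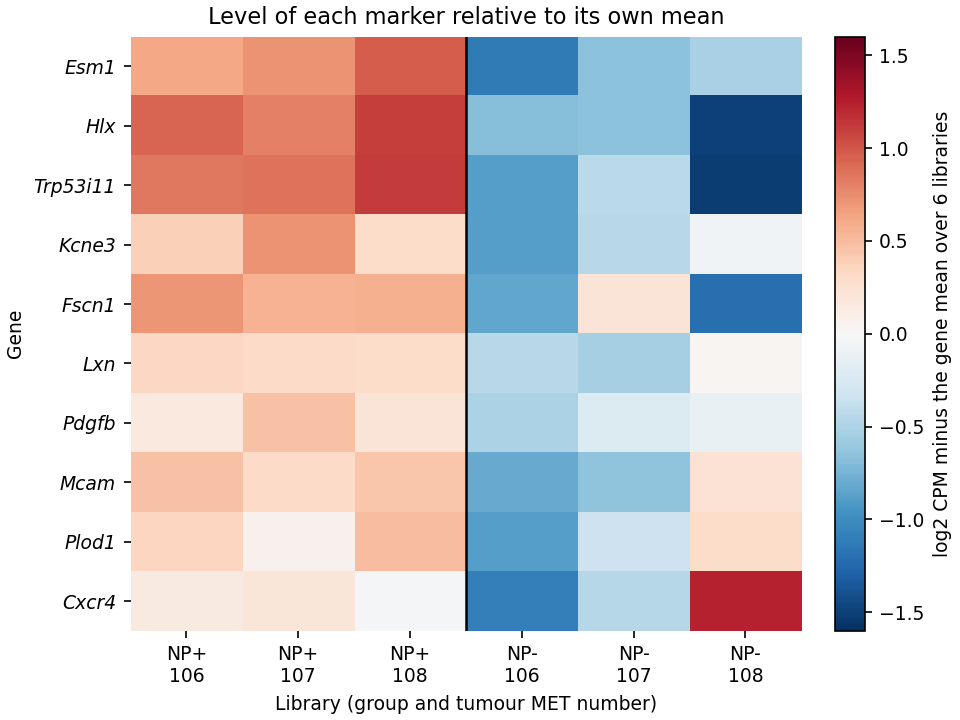
The log2 CPM of each gene (rows) minus its mean over the 6 libraries (columns, NP+ left of NP-), as a colour scale. The NP- library of MET-108 is low for Trp53i11, Hlx and Fscn1 and above the gene's mean for Cxcr4, Plod1, Mcam and Lxn.

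The genes whose levels over the 6 libraries lay nearest to the median profile of the 10 were Irf8, Plcg1, Cd109, Pacs1 and Prex1, out of 10815 genes with a mean of at least 5 CPM. The measure of likeness is the root mean square distance between log2 levels centred on each gene's mean, and it was 0.08 for Irf8 and 0.12 for Prex1. Among the 10, Kcne3 lay nearest to that profile at 0.11 and Hlx and Trp53i11 furthest at 0.69 and 0.68. Irf8 encodes a transcription factor best known from myeloid cells and averaged 93.7 ± 7.15 CPM in NP+, against 50.7 ± 17.5 CPM in NP- (SD, n = 3 each).

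Since pan-endothelial genes were also higher in NP+, each level was set against their summed level in the same library, a measure chosen after seeing the data. Of the 10 genes, 4 then had all NP+ libraries above all NP- libraries, beside 1.47% of all genes tested: Esm1, Kcne3, Trp53i11 and Hlx. Per 1000 CPM of pan-endothelial genes Esm1 stood at 8.09, 9.74 and 10.8 CPM in NP+, against 4.11, 4.64 and 4.69 CPM in NP-. Hlx stood at 2.88, 2.99 and 3.43 CPM in NP+, against 1.59, 1.32 and 0.66 CPM in NP-. The ratio of means on this scale was 2.61 for Hlx, 2.53 for Trp53i11, 2.13 for Esm1 and 1.39 for Kcne3. For the other 6 genes the groups overlapped on this scale. The ratio of means there was 1.08 for Pdgfb, 1.08 for Plod1 and 1.11 for Lxn, 1.24 for Mcam and 1.55 for Fscn1, and 0.71 for Cxcr4.

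Of the 20 pan-endothelial genes 8 were higher at an unadjusted p under 0.05 and 0 lower, with a median log2 fold change of 0.42. The shares over all genes tested were 8.01% higher and 15.4% lower. Of 25 further tip cell genes 13 were higher (20 without the NP- library of MET-108) and 0 lower, with a median of 0.70 and 0 at an adjusted p under 0.05. Those with the smallest p were Apln, Marcksl1, Col4a2 and Mmp14. Marcksl1, an actin regulator gene, stood at 412, 503 and 424 CPM in NP+, against 105.8, 61.1 and 31.6 CPM in NP-, without overlap. Its log2 fold change was 2.75 (SE 0.39), with an adjusted p of 0.0600 (edgeR). Mmp14, a membrane-bound matrix protease gene, stood at 279, 374 and 308 CPM in NP+, against 141, 55.0 and 63.8 CPM in NP-. Cdh5, Robo4, Tek and Tie1 stand on both the pan-endothelial list and the list of stalk or phalanx cell genes. Of 16 stalk or phalanx cell genes 5 were higher and 1 lower, with a median of 0.41. The higher ones included Flt1, a decoy receptor for VEGF, at 1243 ± 181 CPM in NP+, against 529 ± 232 CPM in NP-, and Notch1 at 233 ± 6.33 CPM in NP+, against 125 ± 54.5 CPM in NP- (SD, n = 3 each). Hey2, a Notch target, was the lower one, at 0.35 ± 0.18 CPM in NP+, against 1.82 ± 0.33 CPM in NP- (SD, n = 3 each). It had only 6, 19 and 21 reads in NP+, and its NP- level was 1.44 times that of olfactory receptor genes per length. Those receptor genes, a measure of background signal, also summed higher in NP- within each tumour, as given with Lxn. The part of background in the Hey2 difference was not tested. Of 11 hypoxia-induced genes tested 4 were higher and 0 lower, with Pdk1, a kinase gene of glucose metabolism, at 65.8 ± 9.21 CPM in NP+, against 25.9 ± 7.44 CPM in NP- (SD, n = 3 each). Of 10 proliferation genes 0 were higher or lower without the block, and 8 were higher with the tumour as a block. For the other lists the count of higher genes with the block was 6 (pan-endothelial), 15 (further tip cell genes), 6 (stalk or phalanx) and 5 (hypoxia). No test was made of whether one list differs from another.

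**Figure D5:**
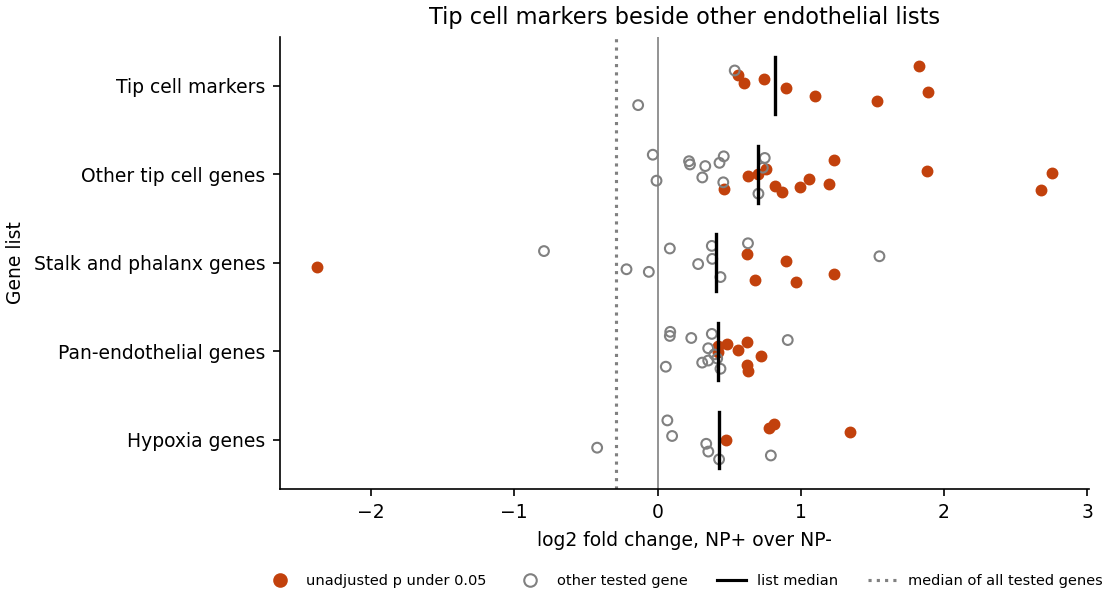
The log2 fold change of NP+ over NP- (horizontal axis) of each tested gene in the tip cell markers and the other endothelial and hypoxia lists (rows), with filled points for an unadjusted p under 0.05 and a line at each list's median. The median is 0.82 for the 10 markers, 0.70 for the other tip cell genes, 0.41 for stalk or phalanx genes and 0.42 for pan-endothelial genes. Cdh5, Robo4, Tek and Tie1 are in both the stalk or phalanx row and the pan-endothelial row.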

How the data were processed

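RNA of 6 libraries was measured with SMART-Seq v4, which marks neither strand nor molecules, and 150 bp paired reads, per the labels' protocols. The authors deposited 1 whole-number count per gene and library. The submitters' processing notes name STAR 2.5.2b, Trimmomatic 0.036, Subread 1.5.2 with featureCounts, DESeq2 and the build GRCm38. Settings for strand and multi-mapping reads: not given in the sources used here. The authors' deposited table gives a signal per library (count over size factor), log2 fold changes of NP- over NP+ (turned here to NP+ over NP-), p-values and adjusted p-values. Of 156426 signal values 100% gave whole reads within 0.01 reads. The count test on them called 3 genes higher (0.0128%), none of them among the 10 markers.

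The test was edgeR 4.0.16's quasi-likelihood test, unblocked, with TMM scaling, filterByExpr by group (minimum count 10) and Benjamini-Hochberg adjustment over 23989 genes, in R 4.3.3. SE is the log2 fold change over the square root of F, and CPM are scaled by TMM. Each tumour gave a library to both groups, so the libraries are paired per the labels. SE and p-values by edgeR ignore this pairing unless the block is named. Same-tumour deviations correlated at 0.28, 0.21 and 0.02. Alternatives were the block, DESeq2 1.42.0, limma-voom 3.58.1, other scalings and filters, and each library left out. Scripts were tested on simulated data. P-values measure the spread between libraries of 3 tumours. The members and the gene lists were chosen with earlier results of these data known. The 10 members, the 4 genes of smallest p per partner list and direct partners are named. GENCODE mouse release 21 gave overlaps, RefSeq the promoter sequences.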

Additional observations from a re-analysis of the deposited data

How the results depend on the processing

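The median log2 fold change of the 10 markers stayed between 0.52 and 1.04 over 16 alternatives to the value of 0.82, and the 9 markers other than Cxcr4 kept a positive value in all of them. These alternatives include the recovered reads, which equal the deposited counts and are not a separate check. The count of 8 markers higher at an unadjusted p under 0.05 was 5 with upper-quartile scaling, 4 with total counts, 4 with a filter of at least 5 CPM in 3 libraries and 4 at a threshold of 0.01. The count of 0 at an adjusted p under 0.05 was 5 without the low-count filter (edgeR), 2 with the 5 CPM filter, 2 with limma-voom, 7 with DESeq2, 7 with DESeq2 and the tumour as a block, and 3 at a threshold of 0.1. It was 0 with edgeR and the tumour as a replicate block. With 1 library left out it ran from 0 to 4, with 3 without the NP- library of MET-106 and 4 without that of MET-108. The 13 other tip cell genes higher at an unadjusted p became 6 (upper-quartile scaling), 5 (total counts) and 5 (5 CPM filter), and ran from 10 to 20 with 1 library left out, 20 without the NP- library of MET-108. The 8 markers whose groups did not overlap became 4 with upper-quartile scaling, 4 with total counts and 4 per pan-endothelial level, beside 6.12%, 4.79% and 1.47% of all genes. Upper-quartile and total-count scaling moved the median of all genes to -0.53 and -0.59, so the markers' median lay 1.08 and 1.11 above it, against 1.11 with TMM. That gap was 0.57 with the 5 CPM filter, where the median of all genes was -0.02, and 1.73 with DESeq2 or with no low-count filter. The log2 fold change of Cxcr4 turned to 0.26 with the tumour as a block, 0.11 without the low-count filter, 0.35 with limma-voom and 0.37 with DESeq2 and the block, and ran from -0.48 to 0.93 with 1 library left out. The cause of these moves was not tested. The number of tumours limits the precision. Each marker's NP- level was at least 23.7 times that of olfactory receptor genes per length. Some other named genes were nearer to that background, with ratios of 1.44 for Hey2, 2.53 for Vgll3, 2.86 for Enah, 3.47 for Itgal and 3.69 for Hgf.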
